A study of Mus musculus with 4 samples.

Results

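Fibroblast growth factor (FGF) ligands and their receptors were followed in cultured mouse calvarial osteoblasts, as 10 genes taken by name: the ligand genes Fgf2, Fgf7, Fgf9, Fgf10, Fgf18 and Fgf23 and the receptor genes Fgfr1, Fgfr2, Fgfr3 and Fgfrl1. They are 10 of 22184 genes that had a row of their own on the array, and all 10 were among the 17869 genes tested, with each of the 4 arrays above the detection floor. The arrays fall into 2 groups of 2: osteoblasts of Runx3f/f/Col1a1-cre mice, in which Cre recombinase driven by the type I collagen promoter acts on floxed Runx3 alleles in cells that make that collagen, and wild-type (WT) osteoblasts. Both came from newborn calvaria, were kept for 21 days in a medium with ascorbate and glycerol phosphate, and carry the numbers of biological replicates 1 and 2. The labels do not say whether a culture pooled several pups, nor whether the WT mice carried floxed alleles or Cre. The study set out to find the genes that Runx3, a DNA-binding factor of the Runt family, governs during osteoblast differentiation.

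Most FGFs are secreted proteins that bind receptor tyrosine kinases together with heparan sulfate chains on the cell surface. The receptors pass the signal through adaptor proteins to the RAS and ERK kinases. Cells answer with transcription factors of the ETS family and with inhibitors, the Sprouty proteins and dual-specificity phosphatases, which dampen the same pathway. In the skull vault FGF signalling balances growth of osteoprogenitors against their differentiation, and activating receptor mutations fuse the sutures early. FGF23 is a hormone, made by osteocytes and late osteoblasts, that lowers phosphate reabsorption in the kidney.

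Values are the authors' normalized array values, taken as log2, so a difference of 1 would be a doubling or halving. The detection floor was 4.70, set from olfactory and vomeronasal receptor genes. Replicate 2 was brighter: the median over tested genes was 7.80 on its arrays and 7.52 on those of replicate 1. The mutant and WT arrays of a replicate number shared exactly equal values in many rows, and 25.7% of tested genes were exactly equal between the groups within both replicates. The sources used here do not say how those values came to be shared, and an equal value does not show that a gene was unchanged. The differences within each replicate are therefore given beside every fit. The fit was also made with the replicate number as a block, which does not remove the effect of shared values. With the block a gene's standard error rests on how alike its differences in the 2 replicates are. It was 0.0011 for Fgfr3, which was equal in both, so a small unadjusted p from the block may reflect that likeness. Runx3 itself read 7.94 and 8.06 in the libraries labelled mutant against 7.45 and 7.87 in WT, so the targeted gene was not lower in them. The labels do not name the deleted exons, so this row may not check the deletion, and every direction below rests on the labels.

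The cultures also differed in markers of other cells. Of 16 macrophage markers, 14 were at least 1.5-fold lower in both replicates, where 1.15% of tested genes were, and the mean level of the list was 6.56 and 6.85 on the mutant arrays against 8.19 and 8.33 in WT. Cd163 alone among them lay under the floor, on 1 mutant array. By that rule 4 of 8 osteocyte markers were lower (median differences of the list -0.77 and -0.66 within the replicates), and 3 of 10 chondrocyte markers (8.10 and 8.33 against 8.65 and 8.90). Cdh5, Flt1 and Emcn, 3 of 8 endothelial markers, were higher by that rule (1.47% of tested genes). Emcn read 3.76 and 4.42 in WT, under the floor, and so was tested only through the arrays where it was high. The list means were 5.94 and 6.30 against 5.32 and 5.87, but the list medians of the differences were 0.29 and 0.04 within the replicates. Pecam1, Kdr, Tek, Vwf and Esam were not higher in both replicates. The Y-linked genes Eif2s3y, Kdm5d and Uty were also higher, by 1.90 to 2.66 within the replicates, and Xist lower (-1.28 and -1.42). A difference in sex between the cultures of the groups cannot be told apart from genotype here. The part of these shifts in the FGF results was not tested. Of 9 osteoblast markers 2 were lower by the same rule, Ibsp (-1.56 and -1.53 within the replicates) and Ifitm5 (-0.86 and -0.87). Col1a1, the main collagen of osteoblasts, read 13.45 to 13.57 on the 4 arrays. The tissue tag of the labels reads myoblast. Of 12 muscle markers 10 were tested, each above the floor on all 4 arrays, and 0 were lower or higher by the same rule. The other 2 (Myf6 and Myh3) were not tested, having read under the floor on all 4 arrays. Whether the cultures held muscle cells was not tested.

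Among the 10 genes, Fgf2 lay lower and Fgf18 higher on the mutant-labelled arrays, and the other 8 differed by less than 0.20 on average. With limma 0 of 17869 genes passed an adjusted p of 0.05, so no FGF gene did. The smallest adjusted p was 0.313 over all genes. In simulated data this fit also passed 0 of 100 genes changed by 2 log2 units, so its adjusted p could not settle whether a gene differed. At an unadjusted p under 0.05, which 706 genes reached (3.95%), Fgf18 was the only member, and 0 members also differed by 1.5-fold (2.58% of tested genes). Which member reached that p depended on the processing: Fgf18 did not after quantile normalization again (limma unadjusted p = 0.162), with median centring (0.288) or with an intensity trend (0.0625), where Fgf2 did instead (0.0135, 0.0114 and 0.0304). With the replicate block 2318 genes (13.0%) reached an unadjusted p under 0.05 and 4 members did, namely Fgf2, Fgf10, Fgf18 and Fgfr2, while 0 genes passed after adjustment. After quantile normalization again with the block, 335 genes (1.87%) passed after adjustment, with Fgf2 the only member (limma adjusted p = 0.0495). By size, 1 member (Fgf2) was at least 1.5-fold lower in both replicates, beside 1.15% of tested genes, and 0 were that much higher.

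**Figure D1:**
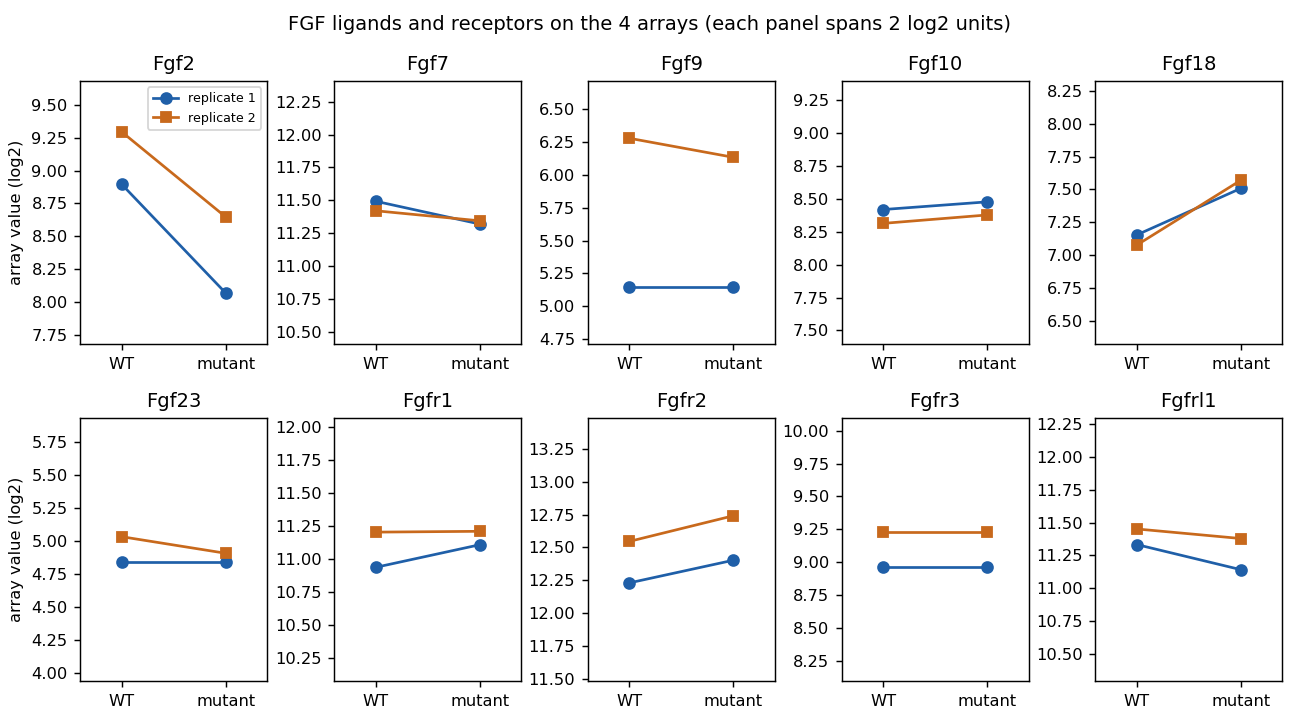
Array value (log2, vertical axis) of each FGF ligand and receptor gene in WT and mutant-labelled cultures; a line joins the 2 arrays of a replicate number, and each panel spans 2 log2 units around its own centre. The mutant points of Fgf2 lie below WT in both replicates, those of Fgf18 above it, and the lines of Fgfr3 are flat because its values are exactly equal within each replicate.

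Fgf2 encodes basic FGF, a mitogen for osteoprogenitors that is stored in bone matrix. It read 8.07 in mutant and 8.89 in WT cultures of replicate 1, and 8.65 against 9.29 in replicate 2. Both mutant arrays lay below both WT arrays, as in 9.23% of tested genes. The group means were 8.36 ± 0.41 and 9.09 ± 0.28 (SD, n = 2 arrays each), a 1.67-fold lower level, with 1.77-fold within replicate 1 and 1.57-fold within replicate 2. By the mean difference, 416 of the 17869 tested genes differed by more. In the fit the log2 difference was -0.74 (SE 0.29, limma unadjusted p = 0.0698, adjusted p = 1), since the replicates also differed from each other, by 0.58 in mutant and 0.40 in WT cultures. With the replicate block the SE was 0.08 and limma's unadjusted p 0.0308 (adjusted p = 0.323).

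Fgf18 encodes the ligand that mouse calvaria need for timely suture closure and osteoblast maturation. Its values were 7.51 against 7.15 in replicate 1 and 7.57 against 7.08 in replicate 2, mutant first. The groups did not overlap, as in 7.65% of tested genes on the higher side, and replicates of a group lay within 0.08 of each other. The mutant-labelled mean was 7.54 ± 0.04 and the WT mean 7.12 ± 0.05 (SD, n = 2 arrays each), or 1.34-fold higher (1.28-fold and 1.41-fold within the replicates). The log2 difference of 0.42 had an SE of 0.12 in limma (unadjusted p = 0.0298, adjusted p = 1), and with the replicate block an unadjusted p of 0.0461 (adjusted p = 0.373). Of the tested genes 1049 differed by more.

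Promoter windows of these 2 genes are shown because Fgf2 and Fgf18 had the largest differences among the FGF genes and Runx3, the gene the labels name as targeted, encodes a DNA-binding factor. They run from 250 bases before to 50 bases after the RefSeq start (GRCm38.p6), Fgf2 at chr3:37348403-37348702 on the plus strand and Fgf18 at chr11:33147351-33147650 on the minus strand, and capitals mark the core letters read by Runt factors, searched as TGTGGT and TGCGGT on both strands (ACCACA and ACCGCA on the other strand).
Fgf2: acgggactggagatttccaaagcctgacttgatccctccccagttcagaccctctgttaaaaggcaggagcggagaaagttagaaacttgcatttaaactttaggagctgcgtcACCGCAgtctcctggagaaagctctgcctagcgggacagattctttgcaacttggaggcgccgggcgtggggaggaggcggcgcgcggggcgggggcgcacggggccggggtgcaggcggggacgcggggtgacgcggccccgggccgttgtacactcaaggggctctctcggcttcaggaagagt
Fgf18: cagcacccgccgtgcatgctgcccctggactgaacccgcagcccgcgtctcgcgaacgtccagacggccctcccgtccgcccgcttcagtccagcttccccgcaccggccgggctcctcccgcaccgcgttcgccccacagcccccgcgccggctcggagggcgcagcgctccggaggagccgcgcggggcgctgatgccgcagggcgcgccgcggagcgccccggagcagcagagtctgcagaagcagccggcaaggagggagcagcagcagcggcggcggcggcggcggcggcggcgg
The Fgf2 window held TGCGGT once, on the opposite strand and beginning 136 bases before the start, and the Fgf18 window held neither. Of 10 windows found for 9 FGF genes, that of Fgf2 alone held either motif, and 22.4% of all 32851 windows did. A match of these letters is a description and shows no binding.

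Fgf7 and Fgf10 encode related ligands made by mesenchymal cells that act mainly on epithelium. Fgf7 was at 11.32 and 11.34 in mutant against 11.49 and 11.42 in WT cultures, a difference of -0.17 and -0.08 within the replicates (limma unadjusted p = 0.358). Fgf10 had 2 rows on the array, and they disagreed. The brighter row, which stands for the gene, read 8.48 and 8.38 in mutant against 8.42 and 8.31 in WT cultures, a difference of 0.06 in each replicate. Its limma p was 0.658, and 0.00895 with the replicate block, where the near-identical differences gave an SE of 0.003. The other row read 7.87 and 8.09 against 8.30 and 8.36, so it was lower by 0.43 and 0.27. The direction of Fgf10 therefore depends on the row, and the mean of both rows gave -0.14.

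Fgf9, which shares receptors with Fgf18 in developing bone, held the same value of 5.15 in both cultures of replicate 1 and read 6.13 against 6.28 in replicate 2. Its replicates were 0.99 and 1.13 apart in mutant and WT cultures, far more than the genotypes. Fgf23 read 4.84 in both cultures of replicate 1 and 4.91 against 5.03 in replicate 2, close to the floor of 4.70. A difference in either ligand was not detectable at these levels (limma unadjusted p = 0.906 and 0.673).

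Receptor genes differed less than Fgf2. Fgfr2, the receptor whose activating mutations cause syndromic craniosynostosis in humans, read 12.40 and 12.74 in mutant against 12.23 and 12.55 in WT cultures. It was higher by 0.17 and 0.19 within the replicates, 1.14-fold on average, while the replicates themselves were 0.34 and 0.32 apart. The limma SE was accordingly 0.21 (unadjusted p = 0.433) and was 0.01 with the replicate block (unadjusted p = 0.0121, adjusted p = 0.233). The groups overlapped on the raw scale.

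Fgfr1, a receptor of osteoprogenitors and mature osteoblasts, read 11.11 and 11.21 in mutant against 10.94 and 11.20 in WT cultures. The 2 replicates did not match in size, with 0.17 in replicate 1 and 0.01 in replicate 2 (limma unadjusted p = 0.605). Fgfr3, which restrains growth plate cartilage, held exactly equal values in each replicate, 8.96 in replicate 1 and 9.23 in replicate 2. Fgfrl1 encodes a receptor-like protein that binds FGFs but lacks the kinase domain. It read 11.14 and 11.38 in mutant against 11.33 and 11.45 in WT cultures, lower by 0.19 and 0.07 (limma unadjusted p = 0.44). Across the 10 genes, 3 were lower in both replicates (19.4% of tested genes) and 4 higher in both (16.8%). The remaining 3, Fgf9, Fgf23 and Fgfr3, were exactly equal in at least 1 replicate (60.4% of tested genes).

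**Figure D2:**
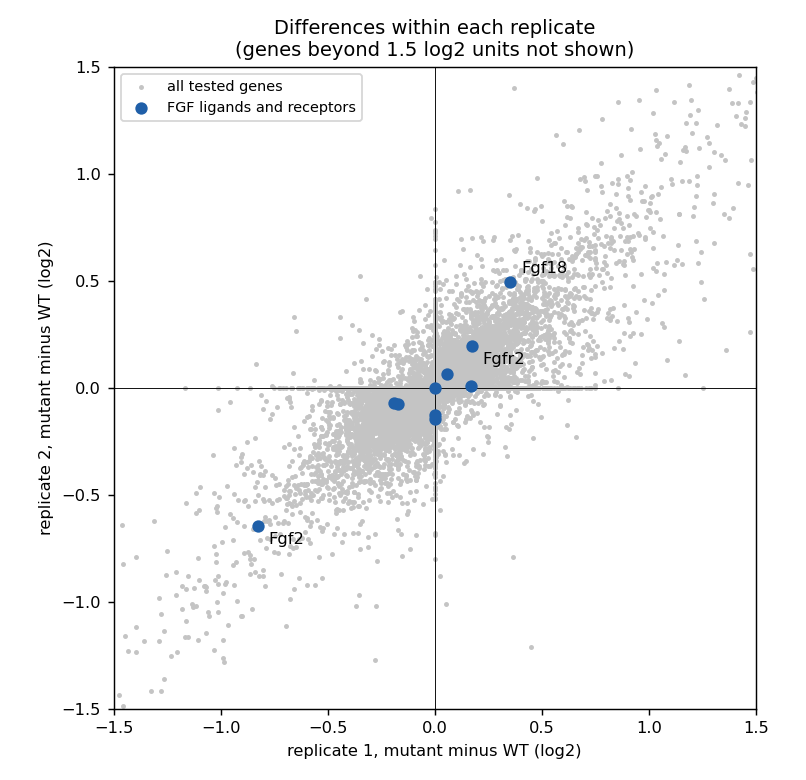
Log2 difference between mutant-labelled and WT cultures in replicate 1 (horizontal) and replicate 2 (vertical), for all tested genes (grey) and the 10 FGF genes (blue). Fgf2 lies at -0.83 and -0.65, Fgf18 at 0.35 and 0.49, and the others sit within 0.20 of zero on both axes.

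Of 16 other Fgf genes, 15 were tested. Of these 0 reached an unadjusted limma p under 0.05, where 3.95% of tested genes did, and 8 were exactly equal in both replicates (25.7% of tested genes). Fgf14 was at 0.44 in replicate 1 and exactly 0 in replicate 2. Fgf5 read 4.49 and 3.78 in replicate 1, both under the floor, and was equal in replicate 2. Fgf4 was at -0.12 and -0.09 (limma unadjusted p = 0.83, and 0.0395 with the replicate block, adjusted p = 0.351). Fgf6 was at -0.25 and 0. Fgfr4, the remaining receptor gene, read 5.88 and 6.30 in mutant against 5.91 and 6.30 in WT cultures. Kl, which encodes the Klotho co-receptor of FGF23, read 4.63 and 5.78 against 4.70 and 5.78, at the floor in replicate 1.

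Of the 10 tested co-receptor and binding protein genes, Cdh2 was the only one at an unadjusted limma p under 0.05 (3.95% of tested genes). Cdh2 encodes N-cadherin, an adhesion molecule of osteoblasts that can associate with FGF receptors. It read 11.98 and 12.05 in mutant against 11.49 and 11.55 in WT cultures, 1.41-fold higher on average (limma unadjusted p = 0.0188, adjusted p = 0.879), and its second row was higher too, by 0.51 and 0.40. The other named genes of the list stayed near zero in replicate 2: Flrt1 was at -0.37 and 0, Flrt2 at 0.05 and 0, and Lctl at 0.04 and 0.

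Among heparan sulfate genes, 2 glypicans lay higher and both Sulf genes lower. Glypicans are cell-surface carriers of heparan sulfate, and Sulf1 and Sulf2 are secreted enzymes that remove sulfate groups from the chains. Of 22 genes tested, Gpc3 and Gpc6 were higher and Sulf1 and Sulf2 lower at an unadjusted limma p under 0.05, which 2.06% and 1.89% of tested genes reached in those directions. The list median was -0.02, beside 0 over all tested genes. Gpc6 read 11.31 and 11.55 in mutant against 10.74 and 10.82 in WT cultures, 1.57-fold higher (limma unadjusted p = 0.0153, adjusted p = 0.835). Gpc3 read 10.29 and 10.21 against 9.63 and 9.75, 1.47-fold higher (adjusted p = 0.831). The groups did not overlap for either gene, as in 7.65% of tested genes on the higher side.

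Sulf1 read 11.60 and 11.53 in mutant cultures against a WT mean of 12.03 ± 0.04 (SD, n = 2 arrays), lower by 0.40 and 0.53 within the replicates or 1.38-fold (limma unadjusted p = 0.0221, adjusted p = 0.938). Sulf2 read 11.69 and 11.67 against a WT mean of 12.02 ± 0.03, 1.27-fold lower (adjusted p = 1). The groups were again apart, as in 7 of the 22 heparan sulfate genes and 9.23% of tested genes on the lower side. The perlecan gene Hspg2 and the chain-building gene Ext2 were exactly equal in both replicates.

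**Figure D3:**
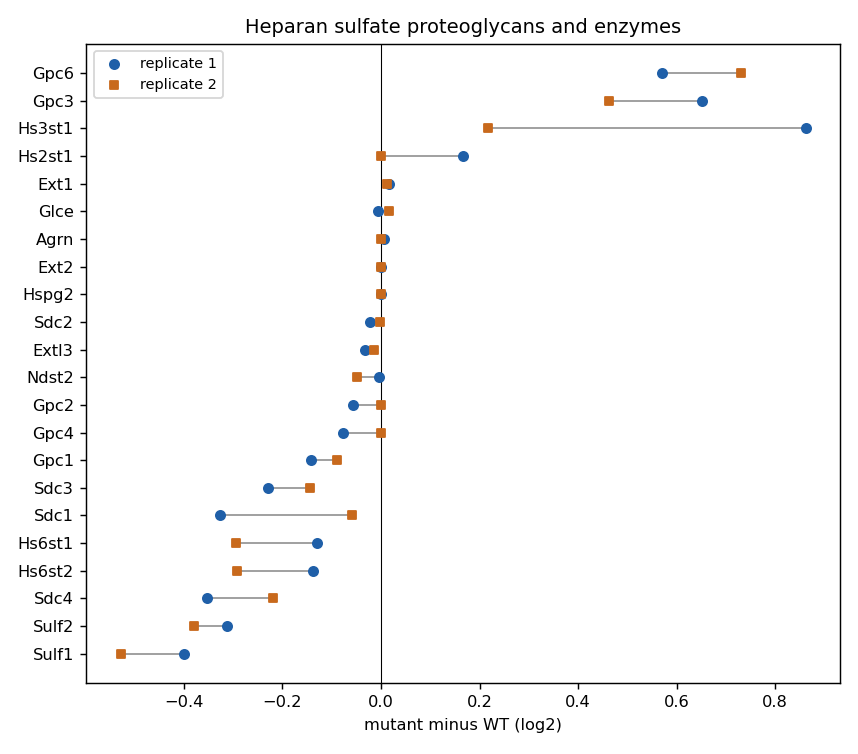
Log2 difference between mutant-labelled and WT cultures for the 22 tested heparan sulfate genes, in replicate 1 (circles) and replicate 2 (squares), ordered by their mean. Gpc6 and Gpc3 are at the top with both replicates above 0.46, and Sulf1 and Sulf2 are at the bottom among genes whose replicates match.

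Of 16 tested genes for adaptors and kinases below the receptor, 0 reached an unadjusted limma p under 0.05 (3.95% of tested genes), and 0 were 1.2-fold apart in both replicates (3.75% of tested genes lower and 4.50% higher). With the replicate block 3 reached that p (13.0% of tested genes), namely Ptpn11, Akt1 and Pik3r1. The median difference was 0.01. Ptpn11, which encodes the phosphatase SHP2, was at -0.17 and -0.20, and Akt1 at -0.17 and -0.20. Pik3r1, a regulatory subunit of PI3 kinase, was at 0.17 and 0.15, and Braf at 0.26 and 0.15.

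Several genes that FGF signalling is known to induce lay lower on the mutant-labelled arrays. Of 19 response and feedback genes, 4 were lower at an unadjusted limma p under 0.05 (Spry2, Spry4, Etv1 and Etv5; 1.89% of tested genes), and 0 passed after adjustment. By the rule of at least 1.5-fold in both replicates, 0 were lower (1.15% of tested genes) and 1, Myc, was higher (1.47%). At 1.2-fold in both replicates, a limit chosen after the values were seen, 7 were lower (3.75% of tested genes) and 1 was higher (4.50%). The 7 were Spry1, Spry2, Spry4, Dusp6, Etv1, Etv5 and Ccnd1. With no limit on size, 9 were lower in both replicates (19.4% of tested genes) and 3 higher (16.8%). The list median was -0.10, and 7 of the 19 were exactly equal in at least 1 replicate (60.4% of tested genes). Many of these genes answer to other growth factors too.

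Spry2 encodes a Sprouty protein, a feedback inhibitor of receptor tyrosine kinases. It read 7.63 and 7.88 in mutant against 8.39 and 8.42 in WT cultures, 1.57-fold lower (limma unadjusted p = 0.015, adjusted p = 0.833). Its relatives followed. Spry4 was 1.30-fold lower, at 9.02 and 8.97 against 9.44 and 9.31. Spry1 was 1.26-fold lower, at 7.83 and 8.15 against 8.17 and 8.47. Its limma unadjusted p was 0.179, and 0.00543 with the replicate block (adjusted p = 0.192). For each of these Sprouty genes both mutant arrays lay below both WT arrays, as in 9.23% of tested genes.

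Etv5 read 8.78 and 8.65 in mutant against 9.32 and 9.10 in WT cultures, 1.41-fold lower (limma unadjusted p = 0.0358, adjusted p = 1). Etv1 read 7.49 and 7.68 against 8.01 and 8.35, 1.51-fold lower (unadjusted p = 0.038). Etv4, the third member of their subfamily, differed by -0.05 and -0.15, at 6.24 and 6.40 against 6.29 and 6.55. Both lower genes had a second row that did not show it: that of Etv5 was at 0.03 and -0.02, and that of Etv1 at 0 and -0.23.

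Dusp6 encodes the phosphatase that switches off ERK. It read 10.53 and 10.76 in mutant against 11.00 and 11.15 in WT cultures, 1.35-fold lower. The limma unadjusted p of Dusp6 was 0.0569, and 0.0213 with the replicate block (adjusted p = 0.281). Its second row lay below the floor and was equal in both replicates. Against this direction, Myc, a growth-promoting transcription factor that many mitogens induce, was 1.62-fold higher, at 10.21 and 10.70 against 9.54 and 9.98. Its limma unadjusted p was 0.0708, and 0.00672 with the replicate block (adjusted p = 0.202). Egr1, an immediate early factor that FGFs and other mitogens induce, was also higher, by 0.25 and 0.27. Its limma unadjusted p was 0.11, and 0.00531 with the block (adjusted p = 0.191). Dusp5, another phosphatase gene of the list, was higher by 0.22 and 0.13.

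**Figure D4:**
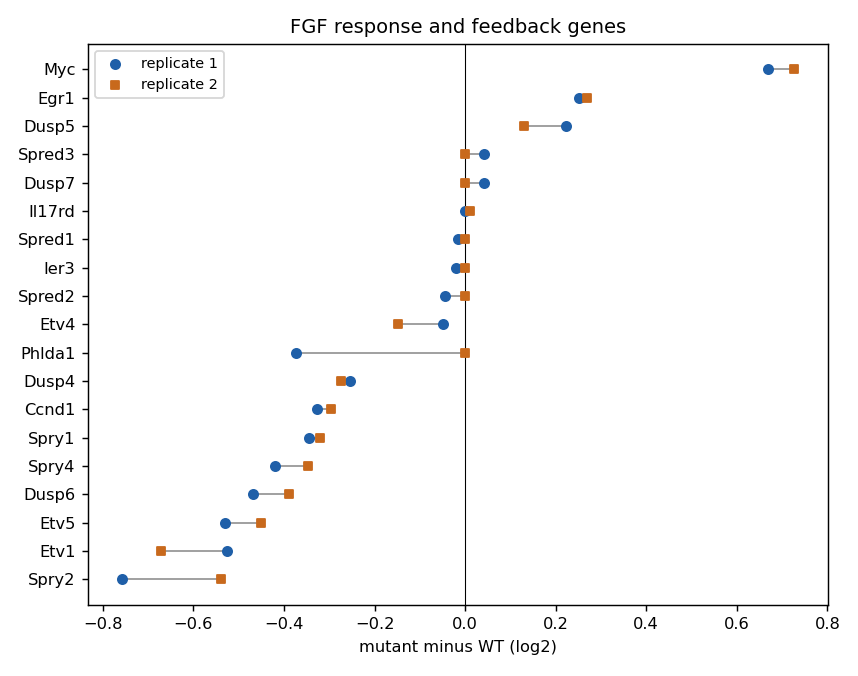
Log2 difference between mutant-labelled and WT cultures for the 19 tested FGF response and feedback genes, in replicate 1 (circles) and replicate 2 (squares), ordered by their mean. Spry2, Etv1 and Etv5 are lowest, at -0.45 or below in both replicates, and Myc is highest at 0.67 and 0.73.

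Genes around FGF23 differed although Fgf23 itself sat near the floor. Loss of Phex or Dmp1 raises FGF23 in mice and causes hypophosphatemic rickets in humans, and Mepe encodes a matrix protein of osteocytes. Of 13 genes tested in this axis, 3 were at least 1.5-fold lower in both replicates (Phex, Dmp1 and Mepe; 1.15% of tested genes), 0 were higher by that rule (1.47%), and the median difference was -0.24. These 3 are also 3 of the 4 osteocyte markers counted as lower above, so that list is no separate evidence. Of the osteocyte markers outside this axis, Ptprz1 was lower (-1.56 and -1.49), while Sost, Pdpn and Irx5 differed by -0.08, -0.04 and -0.08 on average. In these bulk cultures fewer cells of a type and less RNA per cell cannot be told apart.

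Dmp1 read 7.20 and 7.84 in mutant against 8.82 and 9.15 in WT cultures, 2.76-fold lower (limma unadjusted p = 0.01, adjusted p = 0.71). Mepe read 6.50 and 6.70 against 7.65 and 7.87, 2.23-fold lower (adjusted p = 0.467). Phex read 7.62 and 7.95 against 8.51 and 8.73, 1.78-fold lower (adjusted p = 0.831). Fam20c, the kinase that phosphorylates secreted proteins including FGF23, read 8.07 on both mutant arrays against 8.72 and 8.62, 1.51-fold lower (adjusted p = 0.71). The vitamin D gene Cyp24a1 was equal in both replicates.

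**Figure D5:**
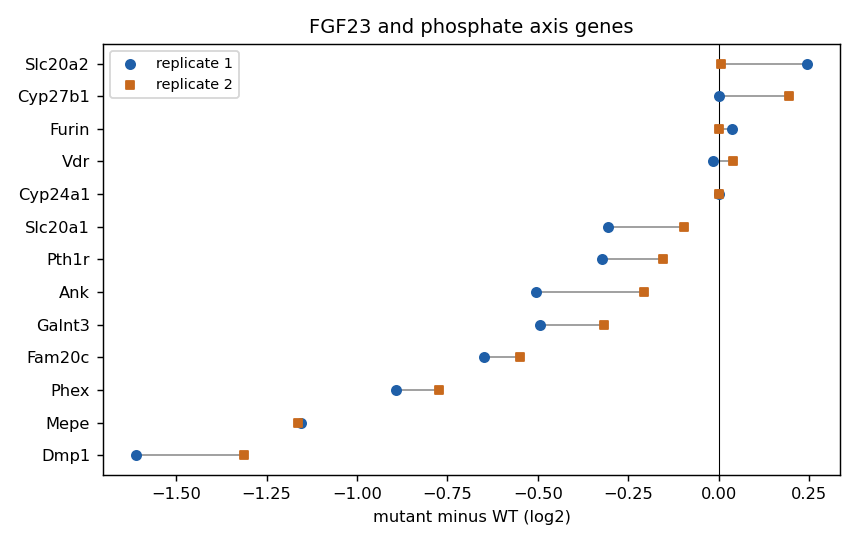
Log2 difference between mutant-labelled and WT cultures for the 13 tested genes of the FGF23 and phosphate axis, in replicate 1 (circles) and replicate 2 (squares), ordered by their mean. Dmp1 lies lowest at -1.61 and -1.31, followed by Mepe, Phex and Fam20c.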

How the data were processed

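RNA of 4 osteoblast cultures (200 ng each, per the labels' protocols) was read on Affymetrix Mouse Gene 2.0 ST arrays. Per the submitters' processing notes the authors' deposited values, taken here as log2, were made with RMA and Partek, with no version or role stated. They span 2.26 to 14.07; neither the base nor the centring is stated, so folds assume base 2 and levels of different genes were not compared.

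Of 41345 rows, 23525 had 1 symbol in the platform annotation, 1810 several and 16010 none listed. A gene's brightest row by mean stood for it. The floor of 4.70 was the 90th percentile of 1406 olfactory and vomeronasal receptor rows, to be exceeded on at least 2 arrays. Equal values were counted with no tolerance: 15613 rows in replicate 1, 18665 in replicate 2 and 0 between other arrays.

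Groups were compared over all 17869 tested genes with limma 3.58.1 in R 4.3.3 (two-sided, no covariate, Benjamini-Hochberg adjustment), after the script was tested on simulated data. Those data kept the offset between replicates, and 100 genes were changed by 1 log2 unit and 100 by 2. After adjustment the fit without the block passed 0 and 0 of them, and the fit with it 84 and 95. How many changed genes the fit with the block would pass on the real arrays was not tested. There 25.7% of tested genes were exactly equal between the groups within both replicates. Alternatives were the replicate block, quantile normalization again, median centring, other floors, the mean of a gene's rows, an intensity trend and each array left out. The number of arrays limits precision.

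The FGF genes and the 6 pathway and 7 marker lists (174 of 188 entries matched, members included) were chosen with earlier results of these data known. Named were all members, and per pathway list up to 4 genes by smallest p and any 1.5-fold apart in both replicates. Fgfr4, Kl, Spry1, Spry2, Spry4, Dusp6, Etv4 and Etv5 were named whatever their values. Ccnd1, Dusp5, Egr1, Hspg2, Ext2, Cyp24a1, Pecam1, Kdr, Tek, Vwf, Esam and genes beside Fgf2 were named after their values were seen. Promoters came from RefSeq (GRCm38.p6).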

Additional observations from a re-analysis of the deposited data

How the results depend on the processing

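The replicate numbers are shared by the groups, and deviations from the group means correlated between arrays of the same number (r = 0.92 across genes, to which the equal values add), but 2 pairs do not establish a pairing. With the replicate block 0 genes passed after adjustment. Genes at an unadjusted limma p under 0.05 went from 706 to 2318 (3.95% to 13.0% of the 17869 tested). Members at that p went from 1 to 4 of 10, and pathway genes from 13 to 23 of the 95 tested. Quantile normalization again gave 1306 genes at that p. With it and the replicate block 335 genes passed after adjustment, 3606 had an unadjusted p under 0.05, as did 3 members and 34 pathway genes, and Fgf2 passed (limma adjusted p = 0.0495), with Etv5, Cdh2, Myc, Dmp1, Mepe, Phex and Fam20c at 0.0399 to 0.0495; over the other alternatives the adjusted p of Fgf2 ran from 0.323 to 1. An intensity trend passed 49 genes, none of them a member. Median centring left 5 pathway genes, and 487 of all tested genes, at an unadjusted limma p under 0.05. With the mean of all rows of a gene, 4 response genes in place of 7 were 1.2-fold lower in both replicates, and Fgf10 turned to -0.14. Lctl turned to -0.0254 after quantile normalization again, with or without the block, and to -0.0192 with median centring, which put Flrt2 at -0.0125.

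Without 1 of the arrays, the difference also holds the offset between replicates. Genes at an unadjusted p under 0.05 then ran from 275 to 419, those also 1.5-fold apart from 275 to 419, members from 0 to 1 and pathway genes from 3 to 3. Fgf2 ran from -1.03 to -0.45 and Fgf18 from 0.38 to 0.46. Differences that took both signs were those of Fgf9 (-0.64 to 0.49), Fgfr3 (-0.13 to 0.13), Fgf23 (-0.159 to 0.0327), Fgfr1 (-0.0448 to 0.223), Etv4 (-0.231 to 0.0319), Fgf14 (-0.15 to 0.59), Fgf4 (-0.54 to 0.33), Fgf5 (-0.66 to 1.37), Fgf6 (-0.333 to 0.0823), Fgfr4 (-0.23 to 0.20), Flrt1 (-0.383 to 0.0117), Flrt2 (-0.031 to 0.0846), Kl (-0.61 to 0.54) and Lctl (-0.13 to 0.17). Where a result moved the cause was not tested.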

Other observations

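In the RefSeq gene order Fgf2 and Spry1 lie on the same stretch of mouse chromosome 3, with the protein-coding genes Nudt6 and Spata5 between them. Non-coding genes and a pseudogene also lie there. Nudt6 and the long non-coding RNA gene Fgf2os overlap Fgf2. Nudt6, whose transcript runs antisense to Fgf2, held the same value of 7.25 in both cultures of replicate 1 and read 7.60 in mutant against 7.80 in WT cultures of replicate 2. Spata5 differed by 0.01 and 0. Fgf2os lay below the floor on all 4 arrays. Fgf2 and Spry1 were thus lower in both replicates, by 0.83 and 0.65 and by 0.34 and 0.32. Spata5 between them was not lower, but its equal value in replicate 2 does not show that it was unchanged. The sources used here do not say which strand the probes read.

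The 4 tested genes whose values over the 4 arrays were closest to those of Fgf2, after each gene's mean was subtracted, were Esm1, Wif1, Enpp3 and Mfsd6, at Euclidean distances of 0.10 to 0.14 log2 units. Wif1, a secreted Wnt inhibitor of mature osteoblasts, read 7.74 and 8.29 in mutant against 8.60 and 9.11 in WT cultures. Those closest to Fgf18 were Nexn, Aff2, Nhs and Mlxip, at 0.05 to 0.07. This likeness rests on 4 arrays, includes the offset between replicates, and is a description only.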
